A study of Mus musculus with 21 samples.

Results

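The 10 genes described here are the Janus kinases Jak1, Jak2 and Jak3, the transcription factors Stat3, Stat5a and Stat5b, and the feedback inhibitors Socs1, Socs2, Socs3 and Cish. They were chosen by name, as the rows of the count tables whose Ensembl identifiers carry these symbols, and they are 10 of 45706 genes in the tables. Each had 1 row, none was at 0 in any of the 21 libraries, and all 10 passed the filter on low counts.

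Receptors for most haematopoietic cytokines have no kinase of their own and carry JAKs on their inner tails. When a cytokine brings the receptor chains together, the JAKs phosphorylate each other and the receptor, and STAT proteins dock there, are phosphorylated, pair and enter the nucleus. Socs1, Socs2, Socs3 and Cish are among the genes that STATs switch on, and their products bind JAKs or receptor tails and dampen the signal, so their mRNA is often read as a trace of recent cytokine signalling. Jak2 and the STAT5 proteins serve the receptors for IL-3, GM-CSF, erythropoietin and thrombopoietin, Stat3 serves those for G-CSF and the IL-6 family, and Jak3 pairs with the common gamma chain. SHP2, the phosphatase encoded by Ptpn11, acts on the same receptors upstream of RAS.

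RNA was sequenced from mice in 3 sorted fractions. LSK cells of the bone marrow (BM) are lineage-negative cells that carry Sca1 and cKit and hold the stem and early progenitor cells. CD11b+ cells are myeloid cells, mostly granulocytes and monocytes, and were taken from the BM and from the spleen. Each fraction had 2 MxCre, 2 Ptpn11D61Y/+ and 3 S3 libraries.

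MxCre mice carry Cre recombinase under the Mx promoter, which interferon switches on, and no mutant allele. Ptpn11D61Y/+ mice carry the D61Y allele behind a stop cassette and no Cre, so the mutant stays silent and a single functional Ptpn11 allele remains. S3 mice carry both (MxCre;Ptpn11D61Y/+) and were terminally ill. By the methods, all mice received poly I:C, which induces interferon and so Cre in blood cells and in other interferon-responsive cells, whereas the labels give no treatment. Ages are not in the labels. By their labels, the S3 libraries come from animals 540 and 815 in every fraction, with animal 768 as the remaining one for LSK cells and animal 640 for CD11b+ cells of both organs. For CD11b+ cells the methods speak of 3 mice in each of the S3 and MxCre genotypes, whereas 2 MxCre libraries per fraction are labelled. Control libraries have only replicate numbers, and the labels do not tie these to animals, so p-values measure the spread between libraries, which may be technical in some groups.

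Total counts ran from 68319460 to 104509425 in LSK libraries, from 34992610 to 73163041 in BM CD11b+ libraries and from 52965938 to 80382578 in spleen CD11b+ libraries. The lowest count of a member in a library was 20, for Cish, and the highest was 39641, for Jak3. The unit of a level is log2 CPM, in which counts are divided by the library's size times its trimmed-mean-of-M-values (TMM) factor, or, between genes, as log2 RPKM, in which CPM is divided by exon length in kilobases. Fold changes are on the log2 scale, and a gene is said to have risen or fallen where the adjusted p of edgeR's quasi-likelihood test over all 19555 genes tested was under 0.05. A gene that did not pass may still have changed. Of 200 simulated log2 changes of 2 between S3 and MxCre spleen libraries, 34 were recovered. In sorted bulk cells, fewer cells of a type and less RNA per cell cannot be told apart.

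The fractions carried their markers. Kit, the receptor that defines LSK cells, lay between 8.17 and 9.06 log2 CPM in LSK libraries, between 2.26 and 4.54 in BM CD11b+ libraries and between 3.70 and 6.19 in spleen CD11b+ libraries. Itgam, which encodes CD11b, lay at 7.46 log2 CPM or more in BM CD11b+ libraries and between 7.24 and 10.7 in spleen CD11b+ libraries, but was also present in LSK libraries at 4.98 to 6.84. LSK and CD11b+ libraries did not overlap for either gene. Other cell types were present, and erythroid markers (8 genes, led by the globins) summed to between 17482 and 161027 CPM in BM CD11b+ libraries. T-cell markers (5 genes) reached at most 16.7 CPM in LSK libraries and NK-cell markers (5 genes) at most 51.7 CPM. B-cell markers (6 genes) lay between 52.6 and 203 CPM there.

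Some libraries stood apart. The fewest genes were detected in BM MxCre 1 (14885), spleen MxCre 1 (14641) and BM S3 815 (14761). Xist, which is expressed in females, and 4 Y-linked genes both had at least 712 counts in 3 libraries. These were BM MxCre 2 with 2834 and 1900, BM S3 540 with 2780 and 958, and spleen S3 540 with 712 and 4225. Every other library had at most 17 counts of Xist or at most 1 of the Y-linked genes. The LSK library of animal 540 had 1 count of Xist and 15172 of the Y-linked genes. The libraries of animal 540 therefore do not look alike although they carry 1 animal number. Spleen Ptpn11D61Y/+ 1 had 4753 counts of Xist and 0 of the Y-linked genes, while LSK and BM Ptpn11D61Y/+ 1 were the reverse. Spleen Ptpn11D61Y/+ 2 had 0 and 7901, so the 2 spleen libraries of this genotype do not look like 1 animal. Each comparison was refitted without the 3 libraries with the fewest genes, without the 3 with both kinds of counts and without single libraries, and the members whose call changed in the refits without 3 libraries are named with their values.

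In the GENCODE annotation of GRCm38, Jak1 lies on the minus strand at chr4:101152367-101265282, Jak2 on the plus strand at chr19:29251828-29313080 and Jak3 on the plus strand at chr8:71676296-71690575. Stat5b (minus strand, chr11:100780731-100850724), Stat5a (plus strand, chr11:100859351-100885169) and Stat3 (minus strand, chr11:100885098-100939540) are neighbours. Stat3 and Stat5a overlap by 72 bases on opposite strands, and exons of the genes overlap there. Stat5a and Stat5b are near-identical copies in parts, so reads shared by both may have been split or dropped in counting. Socs3 lies on the minus strand at chr11:117966079-117970047, Socs1 on the minus strand at chr16:10782240-10785536, Socs2 on the minus strand at chr10:95385362-95417180 and Cish on the plus strand at chr9:107296026-107302784. Jak3 overlaps Insl3 by 1362 bases on its own strand, and exons of the genes overlap there. Insl3 held 2931 counts over all libraries against 235170 for Jak3.

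STAT dimers bind the palindrome TTCNNNGAA, which reads the same on both strands, and it was searched in RefSeq promoter windows of GRCm38.p6 from 250 bases before to 50 bases after a start. Of the members, 9 had a window (11 windows in all, none for Socs2), and 2 held the word, with 2 matches in Cish and 1 in Socs3. Of 32851 windows of all genes, 8.3% held at least 1 match and 0.457% held at least 2. The 30 bases around the matches are shown for these 2 feedback genes, with the matches in capitals and on the strand of the gene.

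Cish: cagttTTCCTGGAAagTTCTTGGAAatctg

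Socs3: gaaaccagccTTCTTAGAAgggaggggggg

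The Cish stretch is chr9:107296654-107296683, on the plus strand, and lies in an untranslated exon of a GENCODE Cish transcript. The Socs3 stretch is chr11:117969501-117969530, on the minus strand, and lies in an intron of a GENCODE Socs3 transcript. A match is a string of letters and not a measured binding site.

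**Figure D1:**
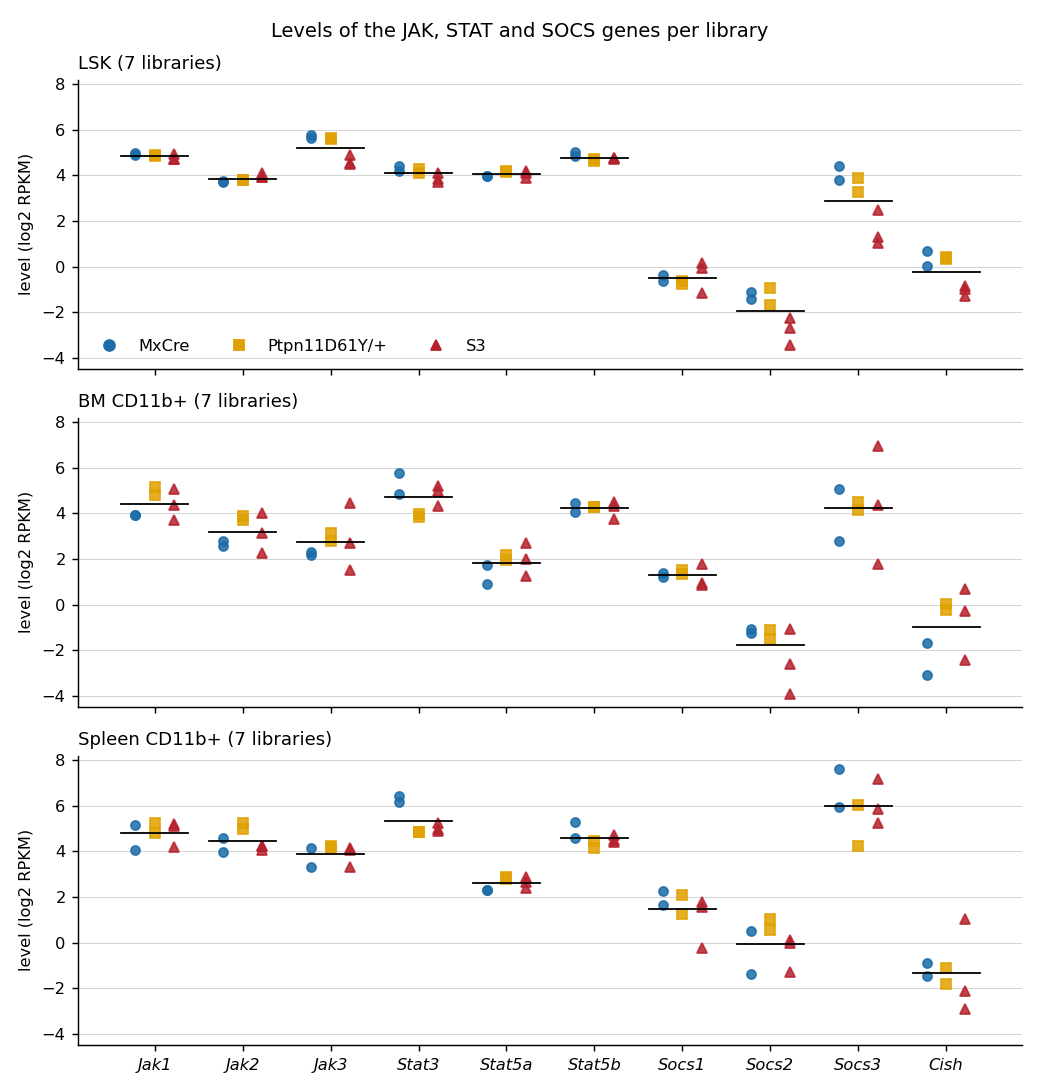
Level of each member in each of the 21 libraries, in log2 RPKM (CPM per kilobase of exon), with a panel per fraction, a point per library coloured by genotype and a black line at the mean of 7 libraries. Jak1 and Stat5b were near the top in every fraction, Jak3 led in LSK cells, and Socs2 and Cish were at the bottom in CD11b+ cells.

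Compared per length, LSK cells were led by Jak3, at a mean of 5.21 log2 RPKM. Jak1 followed at 4.85 and Stat5b at 4.77, and neither step was larger than the larger SD of its pair over 7 libraries. Stat3 (4.09), Stat5a (4.05), Jak2 (3.86) and Socs3 (2.88) came next, and Cish (-0.25), Socs1 (-0.49) and Socs2 (-1.93) were lowest. Of the 9 steps between neighbours, 4 were beyond the spread, below Stat5b, Stat5a, Socs3 and Socs1.

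In spleen CD11b+ cells the order was different, with Socs3 in front at 6.01 log2 RPKM, then Stat3 at 5.35, Jak1 at 4.82, Stat5b at 4.58 and Jak2 at 4.48. None of these 5 differed from its neighbour beyond the spread. Jak3 (3.91), Stat5a (2.6), Socs1 (1.48), Socs2 (-0.05) and Cish (-1.32) followed, each a step beyond the spread. In BM CD11b+ cells Stat3 led at 4.71 log2 RPKM, and Jak1 (4.42), Stat5b (4.24), Socs3 (4.24), Jak2 (3.20), Jak3 (2.73), Stat5a (1.81) and Socs1 (1.30) formed a slope in which no step exceeded the spread. The step from Socs1 to Cish (-1.0) did, and Socs2 was lowest at -1.78.

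The first comparison asked how the signalling parts differ between stem and progenitor cells and CD11b+ cells, with each genotype given equal weight. CD11b+ cells of the BM had less Jak3 and Stat5a and more Socs1 than LSK cells, and CD11b+ cells of the spleen had less Jak3 and Stat5a and more Stat3, Socs1, Socs2 and Socs3. In BM CD11b+ cells 3 members were higher and 4 lower than in LSK cells, against 26.8% and 31.6% of all genes. In spleen CD11b+ cells 5 were higher and 2 lower, against 28.3% and 31.6% of all genes. Such differences were common among all genes, since 58.4% of genes passed the test between BM CD11b+ and LSK cells and 59.9% between spleen CD11b+ and LSK cells. The share of members that passed is therefore close to the background, and the sizes rather than the counts are of interest.

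Among the kinases, Jak3 ran from 6.90 to 8.19 log2 CPM in the 7 LSK libraries (median 7.99), from 3.93 to 6.90 in BM CD11b+ cells (median 5.10) and from 5.72 to 6.66 in spleen CD11b+ cells (median 6.55). Every CD11b+ library of either organ was below every LSK library, which 19.9% of genes showed for the BM and 18.3% for the spleen. Jak3 fell by 2.44 on the log2 scale in BM CD11b+ cells (SE 0.351, adjusted p = 3.6e-05, edgeR) and fell by 1.36 in spleen CD11b+ cells (SE 0.337, adjusted p = 0.00277, edgeR).

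Jak2, the kinase of the receptors for erythropoietin, thrombopoietin and GM-CSF, ran from 6.04 to 6.45 log2 CPM in LSK cells, from 4.61 to 6.35 in BM CD11b+ cells and from 6.32 to 7.59 in spleen CD11b+ cells. It fell by 0.57 in BM CD11b+ cells (SE 0.214, adjusted p = 0.0312, edgeR), although its difference was 0.00 in the Ptpn11D61Y/+ libraries alone. This call of Jak2 held in 6 of 14 fits without a single library (differences between -0.75 and -0.46, highest adjusted p = 0.0762, without BM Ptpn11D61Y/+ 1), and was lost without the 3 libraries with both Xist and Y-linked counts (-0.58, adjusted p = 0.0753, edgeR). It rose by 0.70 in spleen CD11b+ cells with TMM (SE 0.214, adjusted p = 0.0105, edgeR), but stood at -0.07 with library size as the only scaling. Jak1, which partners other JAKs on the receptors for interferons, gamma-chain cytokines and the IL-6 family, lay between 7.57 and 7.82 log2 CPM in LSK cells and had the smallest spread of the members there (SD 0.0961). Its BM difference was -0.39 (SE 0.238, adjusted p = 0.165, edgeR) and its spleen difference was 0.02 (SE 0.238, adjusted p = 0.962, edgeR).

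The scaling moved all genes in these comparisons. Over all genes, the median difference between BM CD11b+ and LSK cells was -0.17 with TMM and -0.99 with library size alone, and between spleen CD11b+ and LSK cells it was -0.14 and -0.90. With library size alone the genes called were 2706 higher and 9856 lower in BM CD11b+ cells, against 5243 and 6175 with TMM, and 3193 higher and 9375 lower in spleen CD11b+ cells, against 5537 and 6183. Taken relative to the median of all genes, Jak2 in the spleen stood at 0.83 with library size alone and Stat3 in the BM at 0.74. Such a relative value hardly depends on the scaling, so it does not show which sign is right.

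Among the transducers, Stat5a ran from 6.69 to 7.04 log2 CPM in LSK cells, from 3.73 to 5.53 in BM CD11b+ cells and from 5.13 to 5.73 in spleen CD11b+ cells. No CD11b+ library reached the lowest LSK library. Stat5a fell by 2.21 in BM CD11b+ cells (SE 0.214, adjusted p = 8.22e-07, edgeR) and fell by 1.46 in spleen CD11b+ cells (SE 0.208, adjusted p = 3.03e-05, edgeR). Its neighbour Stat5b, which encodes a closely related protein, moved less, with a fall of 0.51 in BM CD11b+ cells (SE 0.165, adjusted p = 0.0149, edgeR; 0.0573 without the 3 libraries with both Xist and Y-linked counts) and a difference of -0.17 in spleen CD11b+ cells (adjusted p = 0.398, edgeR). All 7 BM CD11b+ libraries were nevertheless below all 7 LSK libraries for Stat5b.

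Stat3 went the other way. It ran from 6.97 to 7.65 log2 CPM in LSK cells, from 7.11 to 9.01 in BM CD11b+ cells and from 8.11 to 9.67 in spleen CD11b+ cells, and every spleen library was above every LSK library, as for 12.2% of genes. Stat3 rose by 1.28 in spleen CD11b+ cells (SE 0.186, adjusted p = 3.44e-05, edgeR). In BM CD11b+ cells it rose by 0.60 with TMM (SE 0.184, adjusted p = 0.0112, edgeR), but it stood at -0.25 with library size alone and at -0.26 in the Ptpn11D61Y/+ libraries alone. Without the 3 libraries with the fewest genes its BM difference was 0.36 (adjusted p = 0.0565, edgeR).

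Among the inhibitors, Socs1, which blocks JAKs directly and restrains interferon signalling, ran from 0.40 to 1.70 log2 CPM in LSK cells (median 0.91), from 2.42 to 3.33 in BM CD11b+ cells (median 2.89) and from 1.29 to 3.81 in spleen CD11b+ cells (median 3.20). All BM libraries were above all LSK libraries, as for 11.6% of genes, while in the spleen only S3 640, at 1.29, fell within the LSK range. Socs1 rose by 1.83 in BM CD11b+ cells (SE 0.348, adjusted p = 0.000405, edgeR) and by 2.16 in spleen CD11b+ cells (SE 0.352, adjusted p = 9.82e-05, edgeR).

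Socs3, which binds the receptors for G-CSF and the IL-6 family, ran from 2.56 to 5.95 log2 CPM in LSK cells (median 4.81), from 3.33 to 8.50 in BM CD11b+ cells (median 5.91) and from 5.75 to 9.14 in spleen CD11b+ cells (median 7.46). The ranges overlapped in every pair of fractions. Socs3 rose by 3.08 in spleen CD11b+ cells (SE 0.669, adjusted p = 0.00107, edgeR) and by 1.60 in BM CD11b+ cells (SE 0.63, adjusted p = 0.0384, edgeR). The BM rise was 0.84 with a block for the animal or replicate number (adjusted p = 0.251, edgeR; 57.5% of all genes passed), and it did not pass without BM S3 640 (0.92, adjusted p = 0.125), without BM MxCre 1 (1.09, adjusted p = 0.158) or with library size alone (0.84, adjusted p = 0.279, edgeR). By genotype the fitted difference was 0.18 in MxCre, where the means of log2 CPM were 5.46 in BM CD11b+ and 5.65 in LSK cells, 0.72 in Ptpn11D61Y/+ and 3.90 in S3 libraries, and the S3 value passed (adjusted p = 0.0123, edgeR). Of the S3 BM libraries, Socs3 stood at 8.50 log2 CPM in animal 640 and at 5.91 and 3.33 in animals 540 and 815.

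Socs2, best known for restraining growth hormone signalling, ran from -0.16 to 2.30 log2 CPM in LSK cells, from -0.65 to 2.2 in BM CD11b+ cells and from 1.90 to 4.31 in spleen CD11b+ cells. It rose by 1.90 in spleen CD11b+ cells (SE 0.442, adjusted p = 0.00173, edgeR), and its BM difference was 0.24 with TMM (adjusted p = 0.648, edgeR) and -0.54 with library size alone. Cish, an inhibitor of STAT5-linked receptors, ran from 1.38 to 3.35 log2 CPM in LSK cells, from -0.37 to 3.37 in BM CD11b+ cells and from -0.24 to 3.74 in spleen CD11b+ cells. Its differences of -0.74 in the BM and -0.86 in the spleen did not pass, and with that block they were -1.29 (adjusted p = 0.0132, edgeR) and -1.59 (adjusted p = 0.00456, edgeR). Under the same block Jak1 differed by -0.53 between BM CD11b+ and LSK cells (adjusted p = 0.0337, edgeR). The block also joins control libraries by replicate numbers that the labels do not tie to animals. Deviations from group means correlated between -0.0414 and 0.038 for the MxCre numbers and between -0.312 and 0.135 for the Ptpn11D61Y/+ numbers.

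**Figure D2:**
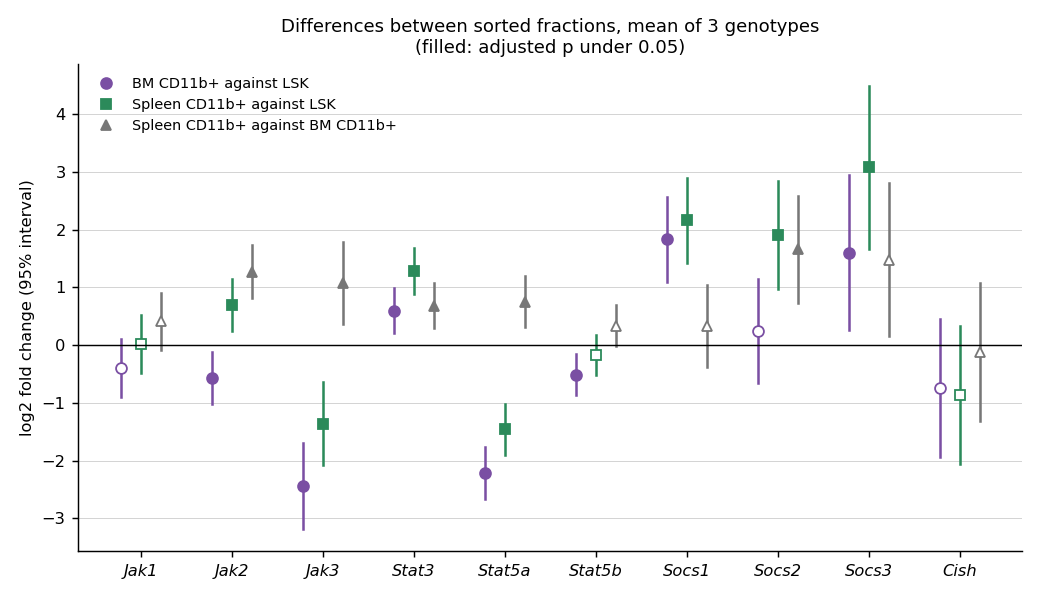
Log2 fold change of each member between fractions (TMM scaling, equal weight to the 3 genotypes), with bars for the 95% interval of the edgeR fit and filled points where the adjusted p was under 0.05. Jak3 and Stat5a lay below 0 and Socs1 above 0 against LSK cells in both organs. With library size alone as the scaling, Stat3 in the BM (-0.25) and Jak2 (-0.07) and Jak1 (-0.74) in the spleen lay below 0. Relative to the median of all genes under that scaling they stood at 0.74, 0.83 and 0.16, values that hardly depend on the scaling.

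Between the organs, CD11b+ cells of the spleen had more of 5 members than those of the BM and less of none, where 14.0% of all genes passed, 6.56% higher and 7.4% lower. Jak2 rose by 1.27 (SE 0.216, adjusted p = 0.00191, edgeR), Jak3 by 1.08 (SE 0.335, adjusted p = 0.041), Stat3 by 0.68 (SE 0.184, adjusted p = 0.0216), Stat5a by 0.75 (SE 0.205, adjusted p = 0.0234) and Socs2 by 1.66 (SE 0.439, adjusted p = 0.02). The 7 libraries of each organ overlapped for all 10 members, and all genes rarely separated them either (0.414% higher and 0.24% lower in every spleen library). Socs3 differed by 1.47 (adjusted p = 0.133, edgeR) and Cish by -0.12 (adjusted p = 0.983, edgeR). By the labels, animals 540, 640 and 815 gave the S3 libraries of both organs, although those labelled 540 do not look alike in Xist and Y-linked counts. In each of them Jak1, Jak2, Stat5a, Stat5b and Socs3 were higher in the spleen, and no other member was higher in all of them. How many of all genes did so was not counted. Cell markers differed between the organs too. In the spleen all 8 erythroid genes were called lower than in the BM (median -4.43 against 0.07 for all genes), all 4 promyelocyte genes lower (median -3.97), 8 of 9 mature neutrophil genes lower (median -1.64) and 2 of 5 T-cell genes lower (median -2.03). Of the dendritic-cell genes 4 of 5 were called higher and 1 lower (median 2.79), of the macrophage genes 3 of 7 higher (median 1.60) and of the LSK-cell markers 3 of 8 higher (median -0.35), and their part in the member differences was not tested. Within a genotype no member passed, and without the 3 libraries that hold both Xist and Y-linked counts 2 members did, while Jak3 (0.95, adjusted p = 0.203), Stat3 (0.50, adjusted p = 0.104) and Socs2 (1.49, adjusted p = 0.0833, edgeR) did not. Without the 3 libraries with the fewest genes Socs2 did not pass (1.15, adjusted p = 0.114), and Stat5b (0.45, adjusted p = 0.028) and Socs3 (2.0, adjusted p = 0.0284, edgeR) did. Of the 5, only Jak2 kept its call in all 14 fits that left out a single library.

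Other genes of the pathway differed in the same comparisons. Of 5 further JAK and STAT genes, 1 rose and 2 fell in BM CD11b+ cells and 2 rose in spleen CD11b+ cells against LSK cells. Tyk2, a kinase of the interferon receptors, fell by 0.64 and Stat2 fell by 0.48 in BM CD11b+ cells, and Stat6, which serves IL-4 and IL-13, rose by 1.04 in spleen CD11b+ cells. Stat2 (0.80) and Tyk2 (0.63) were higher in spleen than in BM CD11b+ cells. Stat4 passed in none of the 3 comparisons.

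Of 12 further inhibitors (SOCS and PIAS genes, phosphatases and Sh2b3), 6 rose and 5 fell in BM CD11b+ cells and 4 rose and 5 fell in spleen CD11b+ cells against LSK cells. Of all genes, 26.8% rose and 31.6% fell in the BM and 28.3% rose and 31.6% fell in the spleen, which holds for each list below. With library size alone these counts were 1 and 7 in the BM and 3 and 6 in the spleen, and 3 PIAS genes that had risen in the BM turned to differences between -0.46 and -0.42. The phosphatases rose most, with Ptpn6, which encodes SHP1, at 2.19 and 2.51, Ptpn2 at 1.17 and 1.23, and Ptpn1 at 1.09 and 2.21 in BM and spleen. Socs5 fell by 2.02 in the BM and fell by 1.14 in the spleen, and Pias2 differed by -1.22 and -0.99. Socs7 fell by 1.16 in the BM and Socs6 fell by 0.97 in the spleen. Ptpn1 was also 1.12 higher in spleen than in BM CD11b+ cells.

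Receptor chains that use JAKs rose more often than they fell. Of 25 chains, 15 rose and 2 fell in BM CD11b+ cells, with a median log2 fold change of 1.31 against -0.17 for all genes, and 15 rose and 4 fell in spleen CD11b+ cells (median 1.55 against -0.14). With library size alone the counts were 8 and 5 in the BM and 12 and 5 in the spleen. Csf3r, the G-CSF receptor, rose by 2.11 in the BM, Ifngr2, a chain of the interferon-gamma receptor, by 2.72 and 3.01, and Il13ra1 by 2.29 and 3.42. Epor rose by 2.29 in the BM, where erythroid markers were abundant; their part in the rise was not tested. Il12rb1 differed by -2.23 and -2.92, both past the threshold, Osmr fell by 3.35 in the spleen, and Il10ra rose by 3.32 there.

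Between spleen and BM CD11b+ cells, 4 chains were higher (Il2rg by 1.63, Il10ra by 1.55, Il21r by 1.01 and Ifngr1 by 0.72) and 2 were lower (Il7r by -3.28 and Epor by -2.61). Il2rg encodes the common gamma chain that carries Jak3. Of 12 ligands 8 were tested, and 5 rose and 1 fell in BM CD11b+ cells, with Ifng at 5.53, Osm at 3.70, Il10 at 3.51, Csf2 at 2.97 and Il15 at 1.06, while Lif fell by 2.27. All 5 T-cell markers rose there as well (median 5.20), with sums between 50.6 and 149 CPM in BM CD11b+ and between 5.22 and 16.7 CPM in LSK libraries, and their part in the rise of Ifng, a product of T and NK cells, was not tested. In spleen CD11b+ cells 6 ligands rose and none fell, and Lif was 2.24 higher there than in the BM.

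Of 12 genes known as targets of STATs, 8 rose and 2 fell in CD11b+ cells of either organ, with medians of 1.76 in the BM and 2.07 in the spleen, against -0.17 and -0.14 for all genes. Cebpd, a myeloid transcription factor, rose by 4.18 and 3.38, and Junb by 3.05 and 3.68. Bcl3 (3.24), the kinase gene Pim1 (3.03) and Bcl6 (2.68) rose in the spleen, and Id1 (2.97) and Il2ra (2.90) in the BM. Myc fell by 3.42 in the BM and fell by 2.80 in the spleen, and Ccnd2, which encodes cyclin D2, fell by 2.14 in the BM. Between the organs Bcl3 was 1.58, Pim3 1.51, Irf1 1.06 and Bcl6 0.81 higher in the spleen. Of 10 immediate-early genes, 5 rose in BM and 6 in spleen CD11b+ cells and none fell, but with library size alone 2 rose and 4 fell in the BM. Nr4a1 was 2.30 higher in spleen than in BM CD11b+ cells.

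The genotype comparisons set S3 against each control genotype, and the control genotypes against each other, within a fraction. S3 mice were also terminally ill, so the expressed mutant and the disease stage cannot be told apart. The control genotypes differ in Cre and in functional Ptpn11 alleles, and neither expresses the mutant. Ptpn11 itself stood at 6.79 and 6.86 log2 CPM in the LSK MxCre libraries, at 6.0 and 5.92 in the Ptpn11D61Y/+ libraries and at 7.26, 7.25 and 7.13 in S3 animals 540, 768 and 815. The groups did not overlap, with the single-allele libraries lowest. In BM CD11b+ cells it stood at 4.46 and 5.42 in MxCre, at 5.53 and 5.78 in Ptpn11D61Y/+ and at 5.97, 6.89 and 4.72 in S3 animals 540, 640 and 815. There, and in the spleen, the single-allele libraries were on average above MxCre, by 0.64 in the BM (adjusted p = 0.493, edgeR) and by 0.89 in the spleen (adjusted p = 0.351, edgeR), opposite to LSK cells. In LSK cells their difference from MxCre was -0.86 (SE 0.58, adjusted p = 1, edgeR). In the spleen Ptpn11 stood at 3.87 and 5.26 in MxCre, 5.96 and 5.14 in Ptpn11D61Y/+ and 6.52, 7.13 and 5.90 in S3 animals 540, 640 and 815, and the S3 difference from MxCre was 1.88 (SE 0.565, adjusted p = 0.0665, edgeR). The gene total does not separate the mutant from the normal transcript.

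In LSK cells, 4 of the 10 members, Jak3, Socs2, Socs3 and Cish, were lower in every S3 library than in every control library of either genotype, which 18.7% of all genes showed. Jak3 stood at 8.04 and 8.19 log2 CPM in MxCre, at 7.99 and 8.04 in Ptpn11D61Y/+ and at 6.90, 6.96 and 7.30 in S3 animals 540, 768 and 815. The control libraries lay close together, and the S3 library nearest to them was that of animal 815. Jak3 differed by -1.05 from MxCre (SE 0.547) and by -0.95 from Ptpn11D61Y/+ (SE 0.547).

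Socs3 stood at 5.34 and 5.95 log2 CPM in MxCre, at 5.42 and 4.81 in Ptpn11D61Y/+ and at 2.82, 2.56 and 4.0 in S3 animals 540, 768 and 815. The S3 libraries were all lower and spread more widely. The difference from MxCre was -2.41 (SE 1.03).

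Cish stood at 2.70 and 3.35 log2 CPM in MxCre, at 3.12 and 3.00 in Ptpn11D61Y/+ and at 1.68, 1.38 and 1.81 in S3 animals 540, 768 and 815. Socs2 stood at 1.82 and 2.13 in MxCre, at 1.60 and 2.30 in Ptpn11D61Y/+ and at 0.56, -0.16 and 1.02 in the same S3 animals. In both, animal 768 was lowest and animal 815 nearest to the controls. The differences from MxCre were -1.43 for Cish (SE 0.924) and -1.45 for Socs2 (SE 0.707).

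None of these passed in the fit of all 21 libraries, in which only 6 genes (0.0307%) were called between S3 and MxCre LSK cells and 777 had an unadjusted p under 0.05, and 19 genes (0.0972%) against Ptpn11D61Y/+. The adjusted p against MxCre was 1 for all 10 members (edgeR). That fit estimates its spread over all 21 libraries. The SD of 9 of the 10 members was larger in BM CD11b+ than in LSK cells, and it includes differences between genotypes. In spleen CD11b+ cells Jak3 (0.412 against 0.558) and Socs3 (1.14 against 1.33) had a smaller SD than in LSK cells, and the other members a larger one. The part of this in the missing calls was not tested, and the fit of the LSK libraries alone was chosen after seeing the data. In a fit of the 7 LSK libraries alone, 28.7% of genes passed against MxCre, and with them 5 members, Jak3 (-1.08, SE 0.133, adjusted p = 0.00215, edgeR), Cish (-1.46, SE 0.215, adjusted p = 0.00322), Socs2 (-1.48, SE 0.364, adjusted p = 0.0221), Socs3 (-2.43, SE 0.549, adjusted p = 0.0336) and Stat3 (-0.44, SE 0.134, adjusted p = 0.0431). Against Ptpn11D61Y/+, where 32.5% of genes passed, Jak3, Cish and Socs2 did so and Socs3 (-1.94, adjusted p = 0.0539, edgeR) did not. DESeq2 called 0.655% of genes against MxCre and no member.

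Both comparisons use the same S3 libraries. All 4 control LSK libraries had Y-linked counts and at most 17 counts of Xist, whereas S3 animals 768 and 815 had 88850 and 39460 counts of Xist and 0 of the Y-linked genes, so in these libraries sex and genotype overlap in part. Animal 540 had Y-linked counts and 1 count of Xist. The part of sex in these differences was not tested.

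The other LSK members moved less. Stat3 differed from MxCre by -0.42 (SE 0.305) in the fit of all libraries and passed in that of the LSK libraries alone. Jak2 was higher in every S3 library (6.27, 6.45 and 6.24 log2 CPM) than in the controls (6.04 to 6.13), as were 22.4% of genes, and both MxCre libraries were the lowest, as for 10.2% of genes, with a difference from MxCre of 0.27 (SE 0.359). Stat5b was lower in every S3 and Ptpn11D61Y/+ library (7.08 to 7.24) than in MxCre (7.33 and 7.47), as were 12.3% of genes. Jak1 differed by -0.13, Stat5a by 0.09 and Socs1 by 0.23 between S3 and MxCre. Between the control genotypes 12 genes (0.0614%) were called and no member, and the member differences lay between -0.53, for Socs3, and 0.19, for Stat5a.

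**Figure D3:**
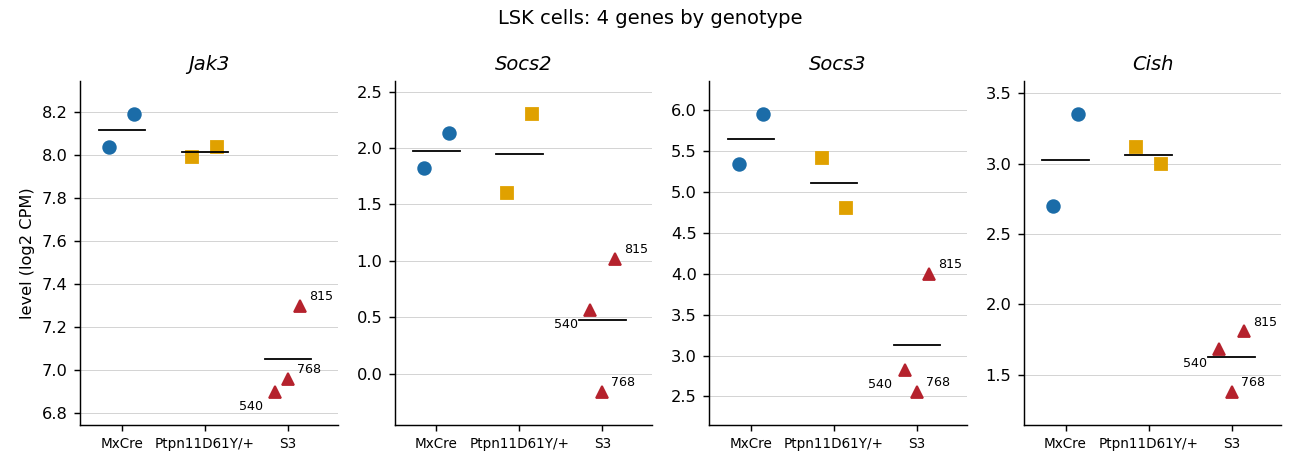
Level of Jak3, Socs2, Socs3 and Cish in the 7 LSK libraries, in log2 CPM, by genotype, with a point per library, S3 points named by animal and a line at the group mean. All S3 points lie below all control points in each panel, and the S3 points of Socs3 run from 2.56 to 4.0.

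Immediate-early genes, which stress and growth signals switch on within minutes, moved with these values. Their 10 genes summed to 22827 and 19186 CPM in MxCre LSK libraries, 16351 and 17207 in Ptpn11D61Y/+ and 5027, 1469 and 5070 in S3 animals 540, 768 and 815. All 10 were lower in S3 than in MxCre LSK cells, with a median difference of -2.33 against 0.01 for all genes, and none passed. Fos, a transcription factor gene and the most abundant of the 10 in all control LSK libraries, stood at 11.64 and 11.50 log2 CPM in MxCre, 11.31 and 11.41 in Ptpn11D61Y/+ and 9.98, 7.47 and 9.42 in S3 animals 540, 768 and 815.

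Markers of other cells differed too. LSK markers (8 genes, led by Cd34 or Kit, none at 0) summed to between 2467 and 2689 CPM in control and between 1589 and 1737 CPM in S3 LSK libraries, and promyelocyte markers (4 genes, led by Mpo, none at 0) to between 2377 and 3980 CPM and between 5998 and 8517 CPM. Mature neutrophil markers (9 genes, led by S100a9, none at 0) summed to 3109 and 2635 CPM in MxCre, 325 and 233 in Ptpn11D61Y/+ and 768, 1062 and 1528 in S3 animals 540, 768 and 815. Erythroid markers summed to 2261 and 1234 CPM in MxCre and to between 69.3 and 150 CPM in the other 5 LSK libraries. Megakaryocyte markers (4 genes, led by Itga2b) lay between 210 and 219 CPM in MxCre and between 328 and 484 CPM in the other LSK libraries. Dendritic-cell markers (5 genes, led by Itgax) lay between 24.8 and 47.5 CPM in control and between 91.3 and 152 CPM in S3 LSK libraries. Monocyte markers (5 genes, led by Ly6c2 or Csf1r) lay between 228 and 420 CPM in the controls and at 294, 1018 and 928 CPM in S3 animals 540, 768 and 815. The part of these genes in the differences of Jak3, Socs2, Socs3 and Cish was not tested.

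In spleen CD11b+ cells Stat3 was the member that differed between genotypes. It stood at 9.41 and 9.67 log2 CPM in MxCre, at 8.13 and 8.11 in Ptpn11D61Y/+ and at 8.25, 8.17 and 8.50 in S3 animals 540, 640 and 815. Both MxCre libraries were above all 5 others, as 10.6% of genes were. Stat3 fell by 1.24 in S3 against MxCre (95% interval -1.88 to -0.60, adjusted p = 0.0321, edgeR), where 4.19% of genes passed, 1.51% higher and 2.67% lower, and fell by 1.43 in Ptpn11D61Y/+ against MxCre (SE 0.343, adjusted p = 0.029, edgeR), where 5.11% passed, 2.1% higher and 3.02% lower. These comparisons share the MxCre libraries. S3 and Ptpn11D61Y/+ differed by 0.20 (SE 0.309, adjusted p = 0.969, edgeR), in a comparison that called 0.00511% of genes.

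**Figure D4:**
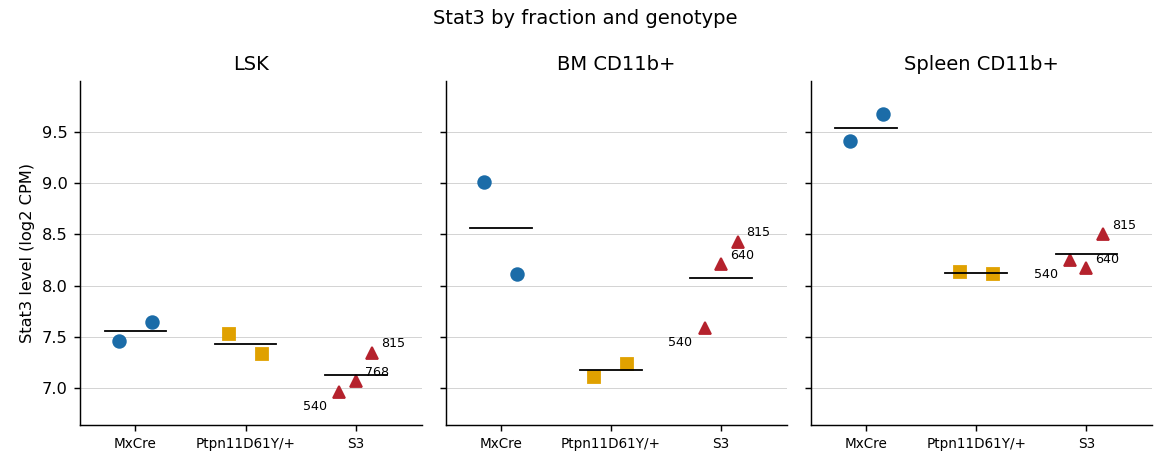
Level of Stat3 in each library in log2 CPM, with a panel per fraction, libraries grouped by genotype, S3 points named by animal and a line at the group mean. In the spleen both MxCre libraries lie above 9.4 and the other 5 libraries between 8.11 and 8.50, and in LSK cells all 7 lie between 6.97 and 7.65.

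With library size alone the median of all genes moved from 0.32 to 0.77 in S3 against MxCre, and the genes called from 296 higher and 523 lower to 661 and 256. In Ptpn11D61Y/+ against MxCre the median moved from 0.20 to 0.84, and the genes called from 410 higher and 590 lower to 1429 and 278. Stat3 stood at -0.80 in both under that scaling (adjusted p = 0.111 and 0.139, edgeR). Relative to the median of all genes it stood at -1.58 in S3, against -1.56 with TMM, and at -1.63 in Ptpn11D61Y/+ with either. A change of scaling shifts all genes of a comparison nearly alike. These relative values therefore stay nearly the same by construction and do not test the scaling. The call of Stat3 in S3 was also lost with only the spleen libraries in the fit (adjusted p = 0.175) and in 4 of the 5 fits without a single MxCre or S3 library (highest adjusted p = 0.104), where the difference lay between -1.36 and -1.10, while DESeq2 gave an adjusted p of 0.00227. Without the 3 libraries with the fewest genes, 1 of them spleen MxCre 1, the adjusted p was 0.0115, and without the 3 that hold both Xist and Y-linked counts it was 0.0289 (edgeR). The call of Stat3 in Ptpn11D61Y/+ passed in 1 of 4 fits without a spleen library of these groups (highest adjusted p = 0.229, without Ptpn11D61Y/+ 1), with differences between -1.56 and -1.30, and was lost with the replicate block (adjusted p = 0.0841) and with only the spleen libraries in the fit (adjusted p = 0.158, edgeR), while DESeq2 gave 0.00175. Without the 3 libraries with the fewest genes Stat5b also passed there (-0.99, adjusted p = 0.023, edgeR).

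The cell content of the spleen fraction differed between the groups. Mature neutrophil markers summed to 43873 and 68974 CPM in MxCre, 3665 and 6880 in Ptpn11D61Y/+ and 66192, 30602 and 30614 in S3 animals 540, 640 and 815, and B-cell markers (6 genes, led by Cd79a or Cd79b) to 164 and 57.6, 1570 and 1962, and 764, 85.7 and 650 CPM. Macrophage markers (7 genes, led by C1qa or C1qb) lay between 2139 and 6138 CPM, monocyte markers (5 genes, led by Csf1r) between 1130 and 1906 CPM and dendritic-cell markers (5 genes, led by Itgax) between 193 and 669 CPM, with MxCre lowest for the last 2. Erythroid markers summed to 2541 and 686 CPM in MxCre, 5647 and 1111 in Ptpn11D61Y/+ and 12495, 30602 and 12913 in S3 animals 540, 640 and 815, and 2 of these 8 genes rose in S3 against MxCre (median 3.65 against 0.32 for all genes). Immediate-early genes summed to 35555 and 30076 CPM in MxCre, 6152 and 28365 in Ptpn11D61Y/+ and 10145, 13418 and 10227 in S3. The part of these genes and cells in the Stat3 difference was not tested beyond these sums.

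No other member passed in the spleen. Stat5a was higher in all S3 and Ptpn11D61Y/+ libraries (5.22 to 5.73 log2 CPM) than in MxCre (5.15 and 5.13), as were 16.2% of genes, with a difference of 0.35 in S3 (adjusted p = 0.541, edgeR). Jak2 stood at 6.32 and 6.90 in MxCre, 7.59 and 7.29 in Ptpn11D61Y/+ and 6.57, 6.4 and 6.58 in S3, and S3 differed from Ptpn11D61Y/+ by -0.93 (SE 0.352, adjusted p = 0.468, edgeR). Cish ran from -0.24 to 3.74 and Socs3 from 5.75 to 9.14, and S3 animal 640 was at or near the top of both, with 3.74 for Cish and 8.72 for Socs3. The same animal had the lowest spleen Socs1, at 1.29, where the other 6 libraries lay between 2.79 and 3.81.

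In BM CD11b+ cells no member passed in any genotype comparison, and 0.0% of all genes did, although 3022 genes between S3 and MxCre had an unadjusted p under 0.05, and DESeq2 called 965. Stat3 stood at 9.01 and 8.11 log2 CPM in MxCre, at 7.11 and 7.24 in Ptpn11D61Y/+ and at 7.59, 8.21 and 8.43 in S3 animals 540, 640 and 815. Both Ptpn11D61Y/+ libraries were lowest, and S3 overlapped with MxCre. The difference between Ptpn11D61Y/+ and MxCre was -1.45 (SE 0.343, adjusted p = 0.164, edgeR). It passed with DESeq2 (adjusted p = 0.0017), which called 1864 of 19555 genes in this comparison. It was -1.83 without BM MxCre 2 and -1.83 without the 3 libraries with both Xist and Y-linked counts. Both of these fits leave a single MxCre library in the BM.

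Socs3 stood in BM CD11b+ cells at 6.59 and 4.34 log2 CPM in MxCre, 5.69 and 6.03 in Ptpn11D61Y/+ and 5.91, 8.50 and 3.33 in S3 animals 540, 640 and 815. The S3 animals held both the highest and the lowest value of the fraction. Among these animals Jak1, Jak2, Jak3, Stat5a, Stat5b and Cish had the same order. Jak3 stood at 5.10, 6.90 and 3.93 and Cish at 2.41, 3.37 and 0.27. The order was also that of Ptpn11 (5.97, 6.89 and 4.72), of Itgam (9.37, 9.89 and 7.46) and of the number of genes detected (19772, 22865 and 14761). The share of all genes with this order was not counted, so it cannot be read as particular to the members. Animal 640 had 23126 CPM of mature neutrophil markers and 17482 CPM of erythroid markers in this fraction, the lowest of the 7 BM libraries for both. BM MxCre 1 had 10088 CPM of macrophage markers, where the other BM libraries had between 259 and 3096.

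Whether the S3 difference from MxCre was unlike between fractions was tested as such. Between BM CD11b+ and LSK cells the S3 effect on Socs3 differed by 3.72 (SE 1.51, unadjusted p = 0.0252, adjusted p = 0.609, edgeR), that on Cish by 3.47 and that on Jak3 by 2.2 (adjusted p = 0.609 for both, edgeR). No member passed in this test or in those between spleen CD11b+ and LSK cells or between the organs, in which 0.0%, 0.00511% and 0.0% of all genes passed.

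The rest of the pathway was also tested between genotypes. Of the 5 further JAK and STAT genes and the 12 further inhibitors, none passed in any fraction. In LSK and BM CD11b+ cells none of the receptor chains, ligands or STAT targets passed between S3 and MxCre. In spleen CD11b+ cells 2 of 25 receptor chains passed in S3 against MxCre, and the same 2 in Ptpn11D61Y/+ against MxCre, where 4.19% and 5.11% of all genes passed, so the count of chains lies near the background. Csf3r, the G-CSF receptor that signals through Stat3, stood at 11.21 and 12.65 log2 CPM in MxCre, at 7.60 and 8.96 in Ptpn11D61Y/+ and at 9.07, 8.37 and 8.27 in S3 animals 540, 640 and 815. Both MxCre libraries were above all others. Csf3r fell by 3.49 in S3 (SE 0.693, adjusted p = 0.0137, edgeR) and fell by 3.67 in Ptpn11D61Y/+ (adjusted p = 0.0215, edgeR), and Il7r, a lymphoid receptor chain, rose by 2.33 (adjusted p = 0.0299) and 2.96 (adjusted p = 0.0154). In the same comparison of Ptpn11D61Y/+ with MxCre 6 of 9 mature neutrophil genes were called lower (median -3.66 against 0.20 for all genes) and 2 of 6 B-cell genes higher (median 3.46), and in S3 none of either passed (medians -0.77 and 1.62). The part of these cells in the differences of Csf3r and Il7r was not tested.

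Of the ligands, Il15 fell by 2.89 in S3 (adjusted p = 0.0342, edgeR) and fell by 3.22 in Ptpn11D61Y/+ (adjusted p = 0.039, edgeR) against MxCre. Of 12 STAT targets, 4 fell and 1 rose in S3 spleen cells against MxCre, with a median of -1.43 against 0.32 for all genes, and 3 fell in Ptpn11D61Y/+ (median -0.98 against 0.20). Of all genes, 2.67% fell and 1.51% rose in S3, and 3.02% fell in Ptpn11D61Y/+. Pim1, a survival kinase gene, stood at 12.67 and 12.52 log2 CPM in MxCre, at 8.66 and 10.38 in Ptpn11D61Y/+ and at 8.29, 8.65 and 9.17 in S3 animals 540, 640 and 815. Both MxCre libraries were above every other library. Pim1 fell by 3.85 in S3 (adjusted p = 0.00777, edgeR) and fell by 2.83 in Ptpn11D61Y/+ (adjusted p = 0.0381, edgeR).

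Irf1, a transcription factor gene of the interferon response, stood at 10.26 and 10.47 log2 CPM in MxCre, at 7.53 and 8.39 in Ptpn11D61Y/+ and at 7.98, 6.4 and 8.22 in S3, and fell by 2.64 in S3 (adjusted p = 0.00928, edgeR) and fell by 2.35 in Ptpn11D61Y/+ (adjusted p = 0.028, edgeR). Junb fell by 3.21 (adjusted p = 0.04) and Pim3 fell by 2.99 (adjusted p = 0.0188) in S3, Cebpd fell by 2.84 in Ptpn11D61Y/+ (adjusted p = 0.0422), and Ccnd2 rose by 2.43 in S3 (adjusted p = 0.0319, edgeR). Junb is also an immediate-early gene and was the only 1 of the 10 to pass in the spleen, where 9 of the 10 were lower in S3 than in MxCre (median -1.82 against 0.32 for all genes) and all 10 in Ptpn11D61Y/+ (median -1.21 against 0.20). Their part in the falls of the STAT targets was not tested. With library size alone the same number of targets passed in S3, while the median of all genes rose from 0.32 to 0.77.

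The calls of these receptor chains, ligands and STAT targets were refitted in the same ways. In Ptpn11D61Y/+ against MxCre none of the 6 genes called (Csf3r, Il7r, Il15, Pim1, Irf1 and Cebpd) passed without spleen Ptpn11D61Y/+ 1 (adjusted p from 0.178 to 0.321, edgeR), without spleen MxCre 2 (0.0719 to 0.179) or with only the spleen libraries in the fit (0.109 to 0.188), and 3 passed with the replicate block. Irf1 passed in none of the 4 fits without a single library, with differences between -2.84 and -1.96. In S3 against MxCre none of the 8 genes called passed with only the spleen libraries (adjusted p from 0.0623 to 0.24, edgeR) and 1, Pim3, with only the groups compared. Irf1 and Pim1 passed in all 5 fits without a single library and Csf3r in 4 (adjusted p = 0.067 without MxCre 2), while Il15, Il7r and Pim3 passed in 2 and Junb and Ccnd2 in 1. Without the 3 libraries with both Xist and Y-linked counts all of these calls held, and without the 3 with the fewest genes all but that of Ccnd2 (adjusted p = 0.0745, edgeR).

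The members also varied together over the 21 libraries, which share 3 fractions, 9 groups and in part the same animals, so correlations are given as descriptions. Jak3 and Stat5a had a Pearson r of 0.92, and 0.69 after each fraction's mean was removed. Jak3 and Socs3 had an r of 0.01 over all libraries and 0.78 within fractions, and Jak3 and Cish 0.58 and 0.73. Stat5a and Stat5b, although neighbours, had 0.59 and 0.02.

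Socs3 followed the summed immediate-early genes, with an r of 0.69 over all libraries and 0.71 within fractions (n = 21). For Stat3 these values were 0.53 and 0.48, against the macrophage markers 0.76 and 0.44, against the mature neutrophil markers 0.54 and 0.27, and against the B-cell markers -0.02 and -0.60. Stat5a ran against the neutrophil markers, with -0.90 over all libraries and -0.43 within fractions, and against the monocyte markers had -0.56 and 0.46.

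**Figure D5:**
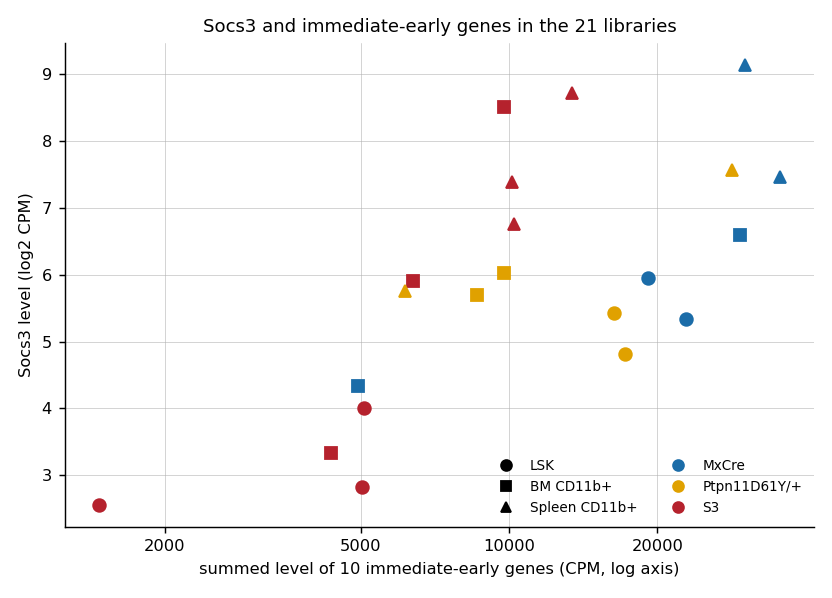
Socs3 level in log2 CPM against the summed level of 10 immediate-early genes in CPM (log axis) in the 21 libraries, marked by fraction and genotype. Libraries with more immediate-early RNA had more Socs3 (r = 0.69), and the 3 S3 LSK libraries lie at the lower left.

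The genes with the most similar profile to each member were sought among the 8774 genes whose mean level reached 3 log2 CPM, by Pearson r over the 21 libraries. Jak1 was closest to Map3k3 (0.958) and Gpkow (0.951), Jak2 to Sh3bp1 (0.954) and Uvrag (0.944), and Jak3 to Etv6 (0.968) and Exoc6b (0.955). Stat5a had the highest values of all members, with Dhx33 (0.987) and Kat2a (0.984), followed for the transducers by Stat3 with Map3k5 (0.935) and Arap1 (0.933) and Stat5b with P2ry2 (0.883) and Ptpre (0.876). Among the inhibitors, Socs1 was closest to Tmem243 (0.962) and Limd2 (0.944), Socs3 to Nfkbiz (0.912) and Klf4 (0.903), Cish to Slc2a9 (0.879), and Socs2 to Fbrsl1 (0.832) and Pou6f1 (0.813).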

How the data were processed

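RNA of sorted cells was extracted by the authors (RNeasy Micro kit) and made into TruSeq Stranded mRNA libraries, and reads were trimmed with Trim Galore 0.6.5 and mapped to GRCm38 with STAR 2.5.3a, the versions being those of the submitters' processing notes. They deposited raw counts per Ensembl gene, 1 table per library and without normalization. The counting program, its use of strand and its handling of shared reads are not given in the sources used here. Symbols were found for 45143 of 45706 identifiers.

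The analysis of counts used edgeR 4.0.16 in R 4.3.3. filterByExpr (minimum count 10, minimum total 15) kept 19555 genes, libraries were scaled by TMM, and 1 robust quasi-likelihood fit over 9 groups covered all 21 libraries (12 residual degrees of freedom), with Benjamini-Hochberg adjustment over all genes and a threshold of 0.05. log2 CPM used a prior count of 2. Marker sums are CPM by library size alone. Lengths are exon unions in GENCODE. Every member had at least 20 counts in each library, with totals of 34992610 to 104509425. Alternatives were DESeq2 1.42.0, RLE factors, library size alone, no filter, only the groups compared, a replicate block and leaving out libraries. A fit of 1 fraction's libraries and the removal of the 3 libraries with both Xist and Y-linked counts were chosen after seeing the data. The scripts were tested on simulated counts, with 200 genes changed in the spleen S3 libraries and S3 compared with MxCre. Of these, 0 were recovered at a true log2 change of 1, 34 at 2 and 167 at 4, with 0, 0 and 7 false calls.

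The members, lists and markers were chosen with earlier results of these data known. Named were all members, up to 6 called genes per list and comparison, the leading marker genes, and the 2 genes most similar to each member. Some genes that this rule names are not reported here. Levels of Fos, Csf3r, Pim1 and Irf1 by library were picked after their values were seen. The animal numbers of S3 libraries pair fractions by their labels: deviations from group means correlated at 0.162, 0.00119 and 0.222 for animal 540, at -0.108, 0.125 and 0.661 for animal 815 and at 0.466 for animal 640. Control numbers pair nothing by their labels.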

Additional observations from a re-analysis of the deposited data

Results flagged for a closer look

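Jak1 and Jak2 were picked out because the sign of a difference was opposite in 2 fractions without overlap between the groups. Jak1 differed between Ptpn11D61Y/+ and MxCre by -0.06 log2 CPM in LSK cells and by 1.06 in BM CD11b+ cells. In LSK cells Jak1 stood at 7.73 in both Ptpn11D61Y/+ 1 and MxCre 1, and with a fitted difference of -0.06 (SE 0.436, adjusted p = 1, edgeR) it shows no direction there. Jak2 differed between S3 and Ptpn11D61Y/+ by 0.20 log2 CPM in LSK cells and by -0.92 in spleen CD11b+ cells. These differences between fractions were not tested.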

How the results depend on the processing

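With library size alone in place of TMM, Stat3 in BM CD11b+ against LSK cells was -0.25, and Jak2 and Jak1 in spleen CD11b+ against LSK cells were -0.07 and -0.74. Over all genes the median went from -0.17 to -0.99 in the BM and from -0.14 to -0.90 in the spleen. Relative to it the 3 stood at 0.74, 0.83 and 0.16. Such relative values hardly depend on the scaling, and which sign is right was not tested. In the Ptpn11D61Y/+ libraries alone, Stat3 and Jak2 in BM CD11b+ against LSK cells were -0.26 and 0.00. The cause of the last 2 was not tested.

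The 1 member called in S3 against MxCre spleen cells became 0 with library size alone, no filter, only the groups compared or only the spleen libraries, and 0 to 1 when single libraries were left out (0 without MxCre 1, MxCre 2, S3 540 or S3 640). In Ptpn11D61Y/+ against MxCre spleen cells it became 0 under these settings and with a replicate block (Stat3 -1.41, adjusted p = 0.0841, edgeR), 2 without the 3 libraries with the fewest genes, and 0 to 1 with single libraries left out. These control numbers are shared only as numbers. The block changed no other genotype call of a member, while Csf3r, Irf1 and Pim1 lost theirs in Ptpn11D61Y/+ against MxCre spleen cells. No paired analysis was possible because of missing shared numbers where S3 was compared with a control. In LSK cells the 0 members called became 3 with only the groups compared and 5 with only the LSK libraries against MxCre, and 3 under both against Ptpn11D61Y/+. In BM CD11b+ cells, Ptpn11D61Y/+ against MxCre gave 1 with DESeq2, without the libraries with both Xist and Y-linked counts and without BM MxCre 2 (range 0 to 1).

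Between spleen and BM CD11b+ cells, 5 members became 3 with library size alone, 1 with only the groups compared, 2 without the libraries with both Xist and Y-linked counts, 0 within each genotype and 1 to 6 with single libraries left out (3 without spleen MxCre 1 or BM MxCre 2, and 1 without BM Ptpn11D61Y/+ 1, BM Ptpn11D61Y/+ 2 or spleen Ptpn11D61Y/+ 1). The 7 called between BM CD11b+ and LSK cells became 4, 3 and 4 within MxCre, Ptpn11D61Y/+ and S3 (5 to 7 with single libraries left out). The 7 between spleen CD11b+ and LSK cells became 4 and 3 within MxCre and Ptpn11D61Y/+ (7 to 8). Socs3 in BM CD11b+ against LSK cells passed in 4 of 14 fits without a library, and Jak3 between the organs in 4 of 14.

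Counts over all genes moved more. For S3 against MxCre, 6 genes in LSK cells became 4536 with only the groups compared, 5605 with only the LSK libraries and 128 with DESeq2, 0 in BM CD11b+ cells became 965 with DESeq2 and 1983 without BM MxCre 2, and 819 in spleen cells became 7 with only the spleen libraries, 14 with only the groups compared, 495 without a filter and 3409 with DESeq2. For S3 against Ptpn11D61Y/+, 19, 0 and 1 became 248, 256 and 385 with DESeq2. For Ptpn11D61Y/+ against MxCre, 12, 0 and 1000 became 103, 1864 and 3381 with DESeq2, 2893 in BM cells without BM MxCre 2, and 0 in spleen cells without Ptpn11D61Y/+ 1. The 2730 genes between the organs became 889 with only the groups compared and 4253 with DESeq2.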
